A study of Homo sapiens with 6 samples.

Results

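The genes described here are 43 genes of homologous recombination, the Fanconi anaemia pathway and mismatch repair, taken by name from the 16305 genes of an RNA-seq experiment on human liver cancer cells. Membership was set by gene name and not by a threshold on expression, but the list was drawn up with earlier results of these data known. All 43 were found in the deposited tables (MRE11A under its current symbol MRE11), and each had at least 10 reads in every sample, with a fewest of 15. The cells were Huh7-R (Huh7SR in the sample labels), a sorafenib-resistant line grown from Huh7, a human hepatocellular carcinoma line, by culture in the kinase inhibitor sorafenib. All 6 samples carried this acquired resistance, and sorafenib had been withdrawn from the medium before the experiments. In 3 samples the cells were treated with fostamatinib, a prodrug of a tyrosine kinase inhibitor, at 2 µM for 24 h, and in the other 3 with the solvent DMSO for the same time, for which the labels also give 2 µM. The line stands for 1 model of resistance, and the labels name no clone of it, although the study also derived clones. Whether the replicate treatments came from separate cultures or passages was not stated, so the p-values measure the spread between these samples. The comparison asks how the transcripts of these repair genes differed between fostamatinib- and DMSO-treated Huh7-R cells.

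Homologous recombination repairs double-strand breaks by cutting back the broken ends, loading a recombinase on the exposed strand and copying the sister chromatid, and it works mainly in S and G2 phase. The Fanconi pathway recognises interstrand crosslinks, attaches ubiquitin to the FANCD2 and FANCI pair and passes the lesion to nucleases and to recombination. Mismatch repair removes errors left by the replication polymerases. Many of these genes are transcribed from late G1 onwards, and their products are abundant in proliferating cells, liver cancer cells included.

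The 6 libraries held 13303451 to 15272737 reads on the listed genes. Within a group, pairs of samples differed by 1.65 to 3.74 times the variance of read counting alone, and between the groups by 39.7 to 44.4 times. All 8 hepatocyte and liver cancer markers examined were listed, and each rose with fostamatinib. Their summed level was 3571 to 3829 CPM with DMSO and 4452 to 4733 CPM with fostamatinib. CPM stands for reads of a gene relative to the scaled total of its library. The marker with the highest level in both groups was AFP, whose mean went from 10.9 to 11.2 log2 CPM. Of 8 markers of blood, endothelial and stromal cells, PTPRC, CD3E, CD68, VWF and DCN were not among the listed genes, and the other 3 (LUM, COL1A1 and PECAM1) summed to 158 to 165 CPM with DMSO and 125 to 131 CPM with fostamatinib. That sum followed LUM, which had most of these reads and fell (log2 fold change -0.40, adjusted p = 2.08e-09), while PECAM1 rose (0.51, adjusted p = 8.37e-04) and COL1A1 did not pass (0.18, adjusted p = 0.298). Values below are log2 CPM as deposited, a fold change is the difference of group means on that scale, and adjusted p-values come from limma over all 16305 genes with a threshold of 0.05.

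Most of the 43 repair genes were lower in the fostamatinib-treated cells. By limma, 33 fell, only ATM rose, and 9 did not pass the threshold. The 34 called members were 79.1% of the list, against 47.8% of all genes, shares that describe a list chosen with earlier results known. The 33 lower members were 76.7% of the list, beside 24.5% of all genes called lower, and the single higher member was 2.33%, beside 23.3% of all genes called higher. The median log2 fold change over the 43 members was -0.36, whereas the median over all genes was 0.0015, and 30 members lay below the 25th percentile of all genes (-0.27). Without regard to a test, 41 members had a lower mean with fostamatinib. In 33 members every fostamatinib sample was below every DMSO sample, which holds 31 of those called lower with RAD51B and FANCF and was seen in 27.4% of all genes, and in 2 members (ATM and PMS2) every fostamatinib sample was above, which held for 26.8% of all genes. The summed level of the 43 genes was 1462 to 1521 CPM with DMSO and 1135 to 1167 CPM after fostamatinib, and thus dropped by 22.6%. In bulk RNA, fewer cells in a phase that transcribes these genes and less RNA per cell cannot be told apart. Only EXO1, RMI2 and XRCC2 fell by more than 2-fold, whereas among the other 30 BRCA1, next in order, fell by 40.1% and MRE11A, the last, fell by 11.8%.

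**Figure D1:**
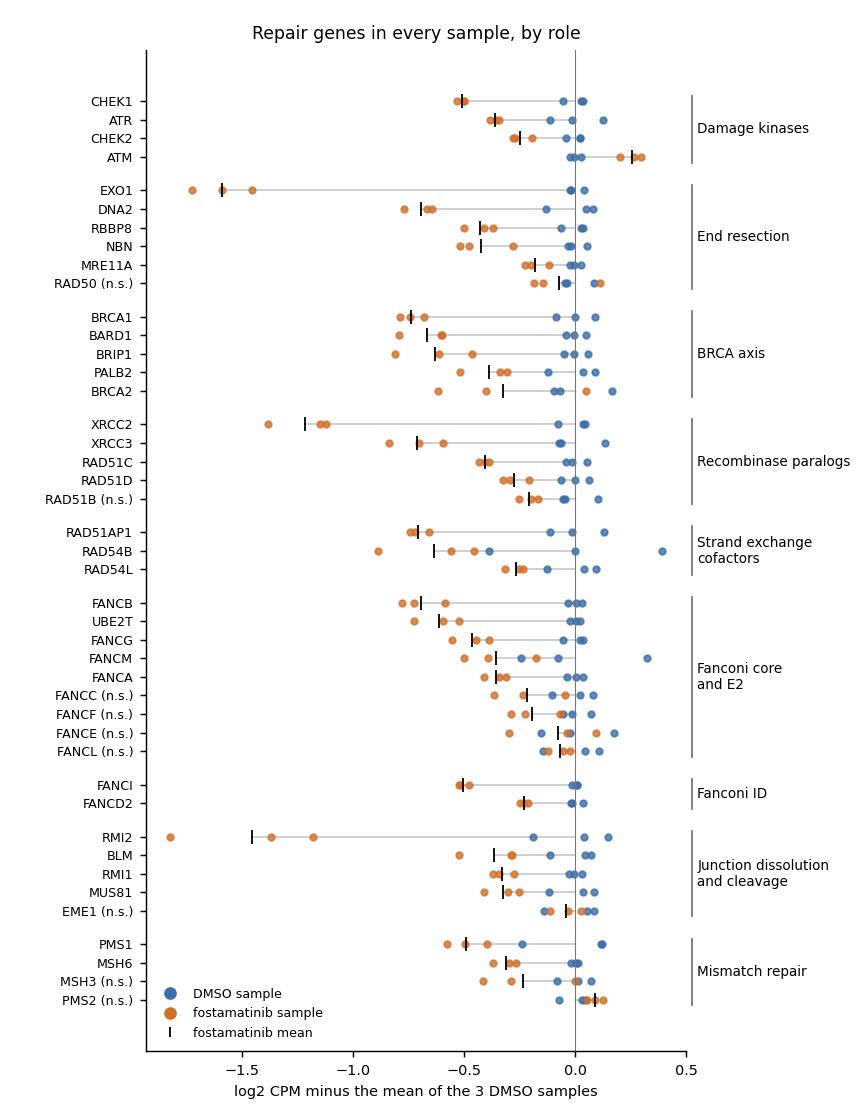
Each row is a repair gene, grouped by role, and each point is a sample's log2 CPM minus the mean of the 3 DMSO samples, with DMSO samples in blue, fostamatinib samples in orange and a tick at the fostamatinib mean; genes that did not pass are marked n.s. The fostamatinib points lie left of the DMSO points in 33 of 43 genes, farthest for EXO1, RMI2 and XRCC2, and right of them for ATM and PMS2.

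The fall of the repair genes came together with a fall of replication genes. The 14 genes of the G1/S transition and of replication licensing all fell, with a median log2 fold change of -1.11 and a range of -1.79 to -0.70, and their summed level was 1319 to 1341 CPM with DMSO and 646 to 675 CPM with fostamatinib. The largest falls were those of GINS2, a replicative helicase subunit (-1.79, adjusted p = 1.16e-15), CCNE2, an S-phase cyclin (-1.77, adjusted p = 6.61e-14), and MCM5, a helicase subunit (-1.55, adjusted p = 2.32e-19). Of 12 genes of the G2/M phases, 8 rose, 1 fell (CDK1, -0.19, adjusted p = 9.79e-04) and 3 did not pass, with a median of 0.14 and a summed level of 2889 to 2923 CPM with DMSO and 3357 to 3424 CPM with fostamatinib. The leading rises were those of AURKA (0.77, adjusted p = 1.40e-18), CDC20 (0.48, adjusted p = 3.63e-12) and CCNB2 (0.42, adjusted p = 7.68e-09), all of which act in mitosis. The repair genes, with a median of -0.36, lay between both lists. The part of the cell cycle genes, and of the hepatocyte, liver cancer and other cell type markers above, in the repair result was not tested.

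**Figure D2:**
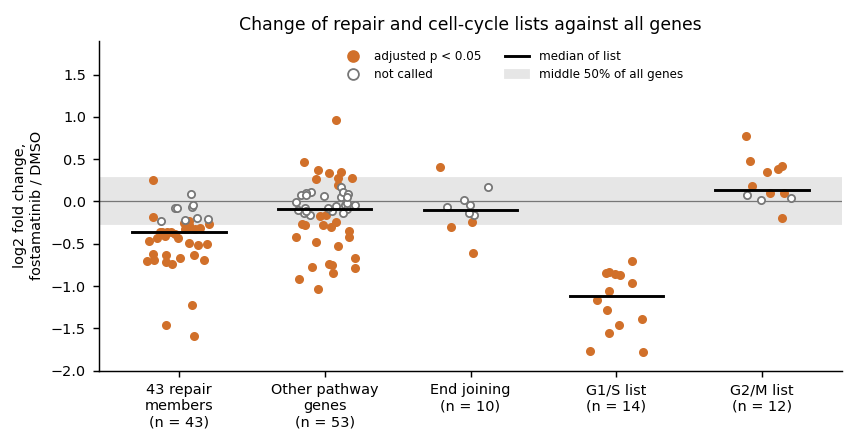
Each point is a gene's log2 fold change (fostamatinib minus DMSO) in the 43 repair genes and in the comparison lists, filled where adjusted p is under 0.05, with a bar at each list's median and grey shading over the middle 50% of all genes. The median is -0.36 for the repair genes, -0.086 for other genes of the same pathways, -0.099 for end joining, -1.11 for G1/S genes and 0.14 for G2/M genes.

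Because the G1/S genes named above are known targets of the E2F transcription factors, the promoters of the repair genes were searched for E2F-type words after the expression values had been seen. RefSeq promoter sequences (assembly GRCh38.p14, 250 bases before to 50 bases after the annotated start) were matched for 38 of the 43 members, and not for NBN, DNA2, RAD54B, FANCI and RMI2. An 8-base word (TTTCCCGC, TTTCGCGC, TTTGCCGC or TTTGGCGC, on either strand) was present in 8 of the 38 (21.1%), beside 547 of 10466 promoters of tested genes (5.23%). It was present in 5 of the 28 members called lower and in 3 of the 9 not called. The median log2 fold change was -0.27 in the 8 members with a match and -0.36 in the 30 without. The CCAAT box (CCAAT) was found in 19 of 38 members and in 36.6% of the tested genes' promoters, and the CHR words TTTGAA and TTCGAA, which are linked to G2/M genes, in 4 of 38 and in 11.5%. A match describes letters and not a bound site, and no match says only that these letters are not in this window.

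The 4 promoters shown here were chosen to set the 2 strongest falls with a match, EXO1 and XRCC2, beside 2 members that carry a pair of matches and did not pass the threshold, MSH3 and FANCC. Each runs 5′ to 3′ on the gene's strand from 250 bases before to 30 bases after the RefSeq start, and capitals mark the E2F-type word or its reverse complement. EXO1 lies at chr1:241847954-241848233, plus strand, XRCC2 at chr7:152676112-152676391, minus strand, MSH3 at chr5:80654402-80654681, plus strand, and FANCC at chr9:95317680-95317959, minus strand (GRCh38.p14).
EXO1: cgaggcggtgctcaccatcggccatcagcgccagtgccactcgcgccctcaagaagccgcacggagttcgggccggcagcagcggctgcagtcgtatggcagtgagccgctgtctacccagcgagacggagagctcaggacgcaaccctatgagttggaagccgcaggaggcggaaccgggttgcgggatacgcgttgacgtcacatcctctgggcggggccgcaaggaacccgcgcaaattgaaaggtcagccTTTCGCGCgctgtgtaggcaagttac
XRCC2: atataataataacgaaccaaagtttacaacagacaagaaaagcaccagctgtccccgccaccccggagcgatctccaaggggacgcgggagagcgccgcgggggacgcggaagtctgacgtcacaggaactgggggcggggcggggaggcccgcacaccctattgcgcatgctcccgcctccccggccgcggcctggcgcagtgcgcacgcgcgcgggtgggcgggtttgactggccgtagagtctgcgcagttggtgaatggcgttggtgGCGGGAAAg
MSH3: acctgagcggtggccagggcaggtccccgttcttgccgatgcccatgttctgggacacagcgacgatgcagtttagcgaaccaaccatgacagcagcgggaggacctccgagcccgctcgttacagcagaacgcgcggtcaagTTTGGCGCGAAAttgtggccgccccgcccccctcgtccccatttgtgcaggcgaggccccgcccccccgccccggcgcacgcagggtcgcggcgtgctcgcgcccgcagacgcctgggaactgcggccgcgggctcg
FANCC: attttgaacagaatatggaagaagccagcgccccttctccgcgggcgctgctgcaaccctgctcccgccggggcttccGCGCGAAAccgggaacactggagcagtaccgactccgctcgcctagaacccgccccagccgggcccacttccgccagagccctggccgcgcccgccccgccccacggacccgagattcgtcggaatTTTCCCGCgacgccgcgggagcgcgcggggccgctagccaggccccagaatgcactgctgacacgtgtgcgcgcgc
In EXO1 the word TTTCGCGC began 5 bases into the transcript, and in XRCC2 the word TTTCCCGC was on the opposite strand, beginning at base 22. The MSH3 pair, TTTGGCGC and TTTCGCGC on opposite strands, began at -107 and -103 and share bases. In FANCC the words began at -172 and -46. These 4 genes differed widely in expression change, with log2 fold changes of -1.59 for EXO1, -1.22 for XRCC2, -0.24 for MSH3 (adjusted p = 0.0691) and -0.22 for FANCC (adjusted p = 0.125).

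Of the 4 damage-signalling kinases, ATR, CHEK1 and CHEK2 fell while ATM rose. ATR, which responds to exposed single strands at stalled forks, read 5.79, 5.69 and 5.93 log2 CPM with DMSO and 5.45, 5.42 and 5.46 after fostamatinib (log2 fold change -0.36 ± 0.0612 SE, adjusted p = 6.83e-06). CHEK1, the effector kinase below ATR, went from 5.33, 5.42 and 5.41 to 4.89, 4.89 and 4.85 (log2 fold change -0.51 ± 0.0643 SE, adjusted p = 2.80e-08). In both genes every fostamatinib sample was below every DMSO sample. CHEK2, the effector below ATM, fell from 5.19 ± 0.036 to 4.94 ± 0.047 (SD, n = 3 each; log2 fold change -0.25 ± 0.0657 SE, adjusted p = 0.00184), and 9.19% of its 50-base transcript windows also occur in other genes, among them its pseudogene CHEK2P2.

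ATM, the kinase that responds to double-strand breaks, was the only member to rise (ENSG00000149311, GRCh37 chr11:108093771-108239829, plus strand). Its levels were 6.07, 6.09 and 6.12 log2 CPM with DMSO and 6.36, 6.39 and 6.29 with fostamatinib, so each treated sample exceeded each control. The change was a log2 fold change of 0.25 ± 0.0508 SE (95% interval, here and below without adjustment for the number of genes, 0.15 to 0.36; adjusted p = 7.47e-05), or 19.3% more. NPAT, a regulator of histone genes whose canonical start lies 429 bases from that of ATM on the opposite strand, went the other way (-0.33, adjusted p = 3.06e-04).

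Among the 6 genes of end recognition and resection, 5 fell and RAD50 did not pass. EXO1, the exonuclease that extends resected ends and also removes the strand in mismatch repair, had the strongest fall of all 43 members (ENSG00000174371, GRCh37 chr1:242011269-242058450, plus strand). It read 5.74, 5.80 and 5.73 log2 CPM in the DMSO samples against 4.30, 4.03 and 4.16 in the fostamatinib samples, and fell by 66.9% (log2 fold change -1.59 ± 0.0719 SE, adjusted p = 1.32e-19). The read counts behind these values were 735, 848 and 790 with DMSO and 270, 232 and 237 with fostamatinib. DNA2, the nuclease-helicase of the parallel resection route, fell by 38.3%, from 4.73, 4.55 and 4.77 to 4.02, 3.91 and 4.04 (log2 fold change -0.70 ± 0.0833 SE, adjusted p = 1e-08). The gap between the groups exceeded the range within either group for both nucleases.

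Of the 3 subunits of the MRN complex, which binds the broken end first, NBN and MRE11A fell and RAD50 did not pass. NBN, which links the complex to ATM, fell from 5.51 ± 0.046 to 5.08 ± 0.13 log2 CPM (log2 fold change -0.43 ± 0.0666 SE, adjusted p = 1.68e-06). MRE11A, the nuclease, fell from 5.36, 5.38 and 5.41 to 5.27, 5.16 and 5.19 (log2 fold change -0.18 ± 0.0621 SE, adjusted p = 0.0157), and its adjusted p was 0.076 without the fostamatinib replicate 2 and 0.052 without replicate 3. RAD50, the ATPase that tethers the ends, read 6.44, 6.43 and 6.56 with DMSO and 6.29, 6.33 and 6.59 with fostamatinib, where the third fostamatinib sample was above all controls. Its log2 fold change was -0.072 (95% interval -0.19 to 0.048; adjusted p = 0.33), and -0.17 (adjusted p = 0.0225) without that sample. In the annotation used here, 90.9% of RAD50's 50-base windows are shared with an overlapping readthrough gene that the deposited tables do not list. RBBP8, which encodes CtIP, the cofactor that starts resection, fell by 25.7% (log2 fold change -0.43 ± 0.0611 SE, adjusted p = 3.17e-07).

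The 5 genes that carry BRCA1 and BRCA2 function to the break all fell, with a median log2 fold change of -0.63. BRCA1, a ubiquitin ligase subunit that favours resection, read 5.60, 5.68 and 5.78 log2 CPM with DMSO and 4.90, 5.004 and 4.94 with fostamatinib (log2 fold change -0.74 ± 0.064 SE, adjusted p = 5.64e-12). BARD1, its obligate partner, read 4.27, 4.30 and 4.36 and 3.71, 3.71 and 3.52 (log2 fold change -0.67 ± 0.0912 SE, adjusted p = 1.46e-07), and BRIP1, a helicase that binds BRCA1, fell from 4.24 ± 0.056 to 3.61 ± 0.17 (log2 fold change -0.63 ± 0.0965 SE, adjusted p = 1.16e-06). In these 3 genes no fostamatinib sample reached the lowest DMSO sample. PALB2, which joins BRCA1 to BRCA2, also fell (log2 fold change -0.39 ± 0.0852 SE, adjusted p = 2.54e-04).

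BRCA2, the protein that loads the recombinase, had the most uneven values of the group. Its levels were 4.76, 4.78 and 5.02 log2 CPM with DMSO and 4.23, 4.45 and 4.90 with fostamatinib, so that the third fostamatinib sample lay inside the DMSO range. The fall (log2 fold change -0.32 ± 0.102 SE, adjusted p = 0.00861) did not pass the threshold without DMSO replicate 3 (-0.24, adjusted p = 0.0682), fostamatinib replicate 1 (-0.18, adjusted p = 0.164) or fostamatinib replicate 2 (-0.29, adjusted p = 0.0557), nor when the variance was moderated without a trend on the mean (adjusted p = 0.23). Among the fostamatinib samples, RAD50, NBN and BRCA2 each had their highest value in the third. That was not particular to them, since ATR, RBBP8 and PMS2, among others, were also highest there, whereas EXO1 was highest in the first.

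Among the 5 recombinase paralogs, which stabilise the recombinase filament, 4 fell and RAD51B did not pass. XRCC2 had the third strongest fall of the 43 genes (ENSG00000196584, GRCh37 chr7:152341861-152373278, minus strand). It read 4.88, 4.76 and 4.88 log2 CPM with DMSO and 3.69, 3.46 and 3.72 after fostamatinib, and fell by 57% (log2 fold change -1.22 ± 0.0873 SE, adjusted p = 4.24e-14), with more than 1 log2 unit between the groups. RAD51D, with which XRCC2 pairs, fell by 17.3% (log2 fold change -0.27 ± 0.0689 SE, adjusted p = 0.00114), and RAD51C fell by 24.7% (log2 fold change -0.41 ± 0.0735 SE, adjusted p = 1.67e-05). XRCC3, the partner of RAD51C, had 80, 88 and 99 reads with DMSO and 51, 48 and 53 with fostamatinib (log2 fold change -0.71 ± 0.157 SE, adjusted p = 2.70e-04). Exons of KLC1 on the opposite strand overlap 76.7% of the exon bases of XRCC3, and KLC1 itself had a log2 fold change of 0.072 (adjusted p = 0.542). Whether reads were counted by strand was not stated, so reads of genes that overlap on opposite strands may not be told apart. RAD51B had few reads, 46, 57 and 50 against 40, 44 and 40, and although its groups did not overlap, its interval was wide (-0.21, 95% interval -0.58 to 0.17, adjusted p = 0.379). It was called only when the variance was moderated without a trend (adjusted p = 0.0489).

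The 3 cofactors of strand exchange all fell. RAD51AP1, which stimulates strand invasion, read 5.01, 4.91 and 5.15 log2 CPM with DMSO and 4.30, 4.37 and 4.28 with fostamatinib (log2 fold change -0.71 ± 0.0763 SE, adjusted p = 9.62e-10). RAD54L, a translocase that acts on the joint molecule, also fell (log2 fold change -0.27 ± 0.0814 SE, adjusted p = 0.00656), and its adjusted p was 0.0534 (log2 fold change -0.22) without DMSO replicate 1. Opposite-strand exons of LRRC41 overlap 19.9% of its exon bases (LRRC41 log2 fold change 0.17, adjusted p = 0.00154). RAD54B, a related translocase, was the member with the lowest level per length, with 64, 54 and 40 reads against 26, 34 and 34 (log2 fold change -0.64 ± 0.216 SE, adjusted p = 0.0145). That call was lost without DMSO replicate 1 (-0.44, adjusted p = 0.144), without fostamatinib replicate 1 (-0.51, adjusted p = 0.0732) and without a variance trend (adjusted p = 0.0807). RAD54B shares 66.0% of its exon bases with FSBP on the same strand, whose log2 fold change was 0.63 (adjusted p = 0.0506).

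In the Fanconi pathway, 5 of the 9 genes of the core complex and its ubiquitin-conjugating enzyme fell and 4 did not pass. UBE2T, the enzyme that hands ubiquitin to the core ligase, fell from 5.12, 5.17 and 5.15 log2 CPM to 4.63, 4.42 and 4.55 (log2 fold change -0.62 ± 0.0717 SE, adjusted p = 5.69e-09). FANCB, a core subunit, fell by 38.3%, from 4.26, 4.20 and 4.23 to 3.45, 3.65 and 3.51 (log2 fold change -0.70 ± 0.0929 SE, adjusted p = 9.13e-08). FANCG fell by 27.5% (log2 fold change -0.46 ± 0.0619 SE, adjusted p = 9.17e-08) and FANCA, its binding partner, fell by 21.9% (log2 fold change -0.36 ± 0.0645 SE, adjusted p = 1.81e-05). ZNF276 on the opposite strand overlaps 19.6% of the exon bases of FANCA (ZNF276 log2 fold change 0.15, adjusted p = 0.153). For these 4 genes no fostamatinib sample reached the lowest DMSO sample. FANCM, the translocase that anchors the complex to DNA, was uneven, with 144, 142 and 205 reads against 134, 111 and 111 (log2 fold change -0.36 ± 0.128 SE, adjusted p = 0.02). Its call was lost without DMSO replicate 3 (-0.20, adjusted p = 0.23), fostamatinib replicate 2 (-0.29, adjusted p = 0.109) or fostamatinib replicate 3 (-0.34, adjusted p = 0.0628), and without a variance trend (adjusted p = 0.158).

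The core genes that did not pass differed in what their intervals allow. FANCL, the catalytic ligase subunit, read 4.75, 4.50 and 4.69 log2 CPM with DMSO and 4.52, 4.62 and 4.59 with fostamatinib, with overlapping groups (-0.068, 95% interval -0.23 to 0.091, adjusted p = 0.501). For FANCE, with 61, 85 and 72 reads against 66, 75 and 53, the interval of -0.41 to 0.25 covered falls and rises alike (adjusted p = 0.714). FANCC (-0.22, interval -0.45 to 0.019) also had overlapping groups. FANCF, whose groups did not overlap (-0.20, interval -0.38 to -0.0095, adjusted p = 0.0776), passed when fostamatinib replicate 1 was left out (-0.26, adjusted p = 0.0385).

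Both subunits of the FANCD2 and FANCI clamp, the substrate of the core complex, fell. FANCI, the member with the most reads, read 6.98, 6.95 and 6.98 log2 CPM with DMSO and 6.45, 6.49 and 6.45 with fostamatinib (log2 fold change -0.51 ± 0.0455 SE, adjusted p = 1.33e-11). FANCD2 fell from 5.50, 5.55 and 5.49 to 5.26, 5.30 and 5.28 (log2 fold change -0.23 ± 0.0598 SE, adjusted p = 0.00156). The SD over the 3 samples was at most 0.032 in either gene and group. Of the 50-base windows of FANCD2, 8.0% occur in other genes, most often in its pseudogene FANCD2P2.

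Of the 5 genes that take apart joined chromosomes, BLM, RMI1, RMI2 and MUS81 fell and EME1 did not pass. RMI2, a small subunit of the BLM dissolvasome, had the second strongest fall of the list on few reads, 46, 60 and 63 with DMSO and 20, 15 and 22 with fostamatinib (log2 fold change -1.46 ± 0.23 SE, adjusted p = 1.95e-06; ENSG00000175643, GRCh37 chr16:11343476-11475519, plus strand). The helicase BLM read 5.40, 5.24 and 5.43 log2 CPM and 4.83, 5.07 and 5.07 (log2 fold change -0.37 ± 0.0712 SE, adjusted p = 5.33e-05), and RMI1, the scaffold, fell from 4.34 ± 0.029 to 4.01 ± 0.048 (log2 fold change -0.33 ± 0.0836 SE, adjusted p = 0.00122). All 3 dissolvasome genes were separated between groups, RMI2 by the widest gap. MUS81, a structure-specific nuclease, fell by 20.1% (log2 fold change -0.32 ± 0.0755 SE, adjusted p = 5.19e-04). EME1, its regulatory partner, read 3.76, 3.95 and 3.99 and 3.87, 3.79 and 3.93, with overlapping groups (-0.04, 95% interval -0.23 to 0.15, adjusted p = 0.753). Opposite-strand exons of CFL1 overlap 13.9% of the exon bases of MUS81 (CFL1 mean 9749.7 reads, log2 fold change -0.052, adjusted p = 0.244). Those of LRRC59 overlap 16.4% of the exon bases of EME1 (LRRC59 mean 3433.8 reads, log2 fold change -0.27, adjusted p = 4.04e-07).

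Of the 4 mismatch repair genes, 2 fell and 2 did not pass, and their median of -0.27 was the nearest to 0 among the 9 role groups. MSH6, which recognises base mismatches, read 6.75, 6.77 and 6.78 log2 CPM with DMSO and 6.50, 6.39 and 6.47 with fostamatinib (log2 fold change -0.31 ± 0.0473 SE, adjusted p = 1e-06). PMS1, a homologue of the nicking subunit with a less clear role, fell from 4.72, 4.36 and 4.72 to 4.10, 4.20 and 4.02 (log2 fold change -0.49 ± 0.0905 SE, adjusted p = 2.46e-05). MSH3, which recognises insertion loops, read 3.82, 3.66 and 3.76 against 3.75, 3.33 and 3.46, so that the first fostamatinib sample lay inside the DMSO range (-0.24, 95% interval -0.46 to -0.018, adjusted p = 0.0691), and it passed without that sample (-0.35, adjusted p = 0.0118). PMS2, the endonuclease that nicks the new strand, had every fostamatinib sample above every DMSO sample (5.15, 5.14 and 5.03 against 5.16, 5.20 and 5.23), yet the difference did not pass (0.089, interval -0.043 to 0.22, adjusted p = 0.271). PMS2 shares 35.4% of its 50-base windows with 30 other genes, which leaves its counts uncertain, and 22.7% of MSH6's exon bases are overlapped by FBXO11 on the opposite strand (log2 fold change 0.12, adjusted p = 0.104).

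Genes whose proteins work as partners were compared by their ratio, which asks whether both changed alike. For 16 such pairs the log2 ratio of both genes was taken within each sample and compared over the 3 and 3 samples by an exact two-sided permutation test, whose smallest possible p is 0.10. In 10 pairs the ratios of the groups did not overlap, each at that smallest p. After adjustment over the 16 pairs the smallest value was 0.16, so no pair could pass. Single genes often separated too, with every fostamatinib sample below every DMSO sample in 27.4% of all genes and above in 26.8%. The share among arbitrary pairs of genes was not computed, so the count of 10 is not read as particular to partners. The widest shift was in RMI1 over RMI2, where the log2 ratio went from 2.39 ± 0.16 to 3.52 ± 0.31 (SD, n = 3 each; difference 1.13 ± 0.202 SE). FANCL over UBE2T shifted by 0.55 ± 0.125 and FANCD2 over FANCI by 0.28 ± 0.0269, the latter from -1.46 ± 0.046 to -1.18 ± 0.0097. In each of these 3 pairs the ratio was higher with fostamatinib.

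In the other 7 non-overlapping pairs the ratio was lower. CHEK2 over ATM went from -0.91 ± 0.021 to -1.41 ± 0.058, as the kinase rose while its effector fell. PMS1 over PMS2 shifted by -0.58 ± 0.154, XRCC2 over XRCC3 by -0.51 ± 0.0656, NBN over RAD50 by -0.35 ± 0.0342 and MUS81 over EME1 by -0.28 ± 0.112. The shifts were smaller for CHEK1 over ATR (-0.15 ± 0.0773) and RAD51C over RAD51D (-0.13 ± 0.0601). The ratios of the groups overlapped for BRCA1 over BARD1 (-0.072 ± 0.072, exact p = 0.5), BRCA2 over PALB2 (0.064 ± 0.159, exact p = 0.8), BLM over RMI1 (-0.035 ± 0.076, exact p = 0.7), MSH6 over MSH3 (-0.075 ± 0.109, exact p = 0.6), MRE11A over RAD50 (-0.11 ± 0.114, exact p = 0.5) and RAD54L over RAD54B (0.37 ± 0.267, exact p = 0.3). With 3 samples a group these p-values do not show that the partners changed alike.

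**Figure D3:**
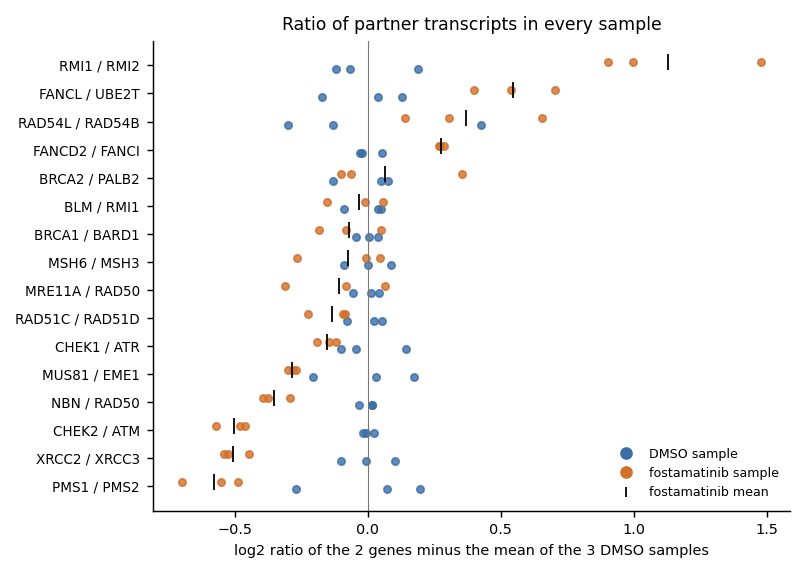
Each row is a partner pair, and each point is the log2 ratio of its genes in a sample minus the mean ratio of the 3 DMSO samples (blue, DMSO; orange, fostamatinib, with a tick at their mean). RMI1 over RMI2 moves farthest to the right (1.13), PMS1 over PMS2, XRCC2 over XRCC3 and CHEK2 over ATM move to the left, and BRCA1 over BARD1 overlaps.

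Levels were compared between genes as CPM per kilobase of the canonical transcript. In the DMSO samples UBE2T was highest at 40.4 ± 0.69 CPM per kilobase (SD, n = 3), followed by FANCI at 26.5 ± 0.24 and MSH6 at 25.5 ± 0.29. FANCG (19.9 ± 0.64) and CHEK2 (19.8 ± 0.49) came next and did not differ beyond their spread, nor did EXO1 (15.7 ± 0.39), RAD51AP1 (15.5 ± 1.3), RBBP8 (15.5 ± 0.57) and FANCL (15.1 ± 1.3) after them. The lowest were FANCM at 1.57 ± 0.33 and RAD54B at 1.19 ± 0.32, which did not differ beyond their spread. These levels use the whole transcript length and were not corrected for bases shared with other genes. That limits the ranks of RAD50 (90.9% of windows shared with a readthrough gene) and RAD54B (66.0% of exon bases shared with FSBP) in particular. It also limits those of XRCC3 (76.7% overlapped by KLC1) and PMS2 (35.4% of windows shared). After fostamatinib UBE2T was still highest at 26.4 ± 1.9, MSH6 (20.5 ± 0.74) stood above FANCI (18.6 ± 0.31), and EXO1 went from rank 6 to rank 24 of the 43 at 5.21 ± 0.49. ATM went the opposite way, from rank 30 at 5.28 ± 0.096 to rank 16 at 6.3 ± 0.21. The largest falls were thus spread over levels, since EXO1 was among the highest members and RMI2 (2.71 ± 0.32 with DMSO, rank 35) among the lowest.

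**Figure D4:**
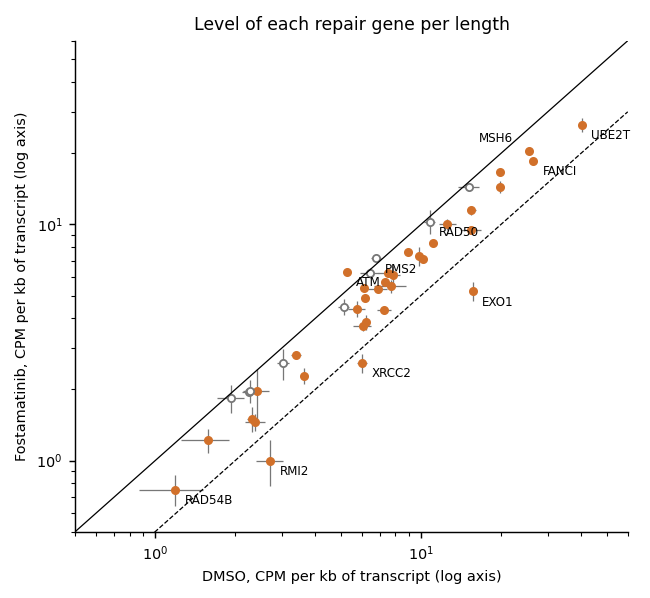
Each point is a repair gene, with its level as CPM per kilobase of transcript in the DMSO samples (horizontal) and the fostamatinib samples (vertical) on log axes, bars of 1 SD, filled where adjusted p is under 0.05 and open otherwise. The solid line marks equal levels and the dashed line a 2-fold fall, which EXO1, XRCC2 and RMI2 pass, while ATM and PMS2 lie above the solid line.

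Several of the repair genes are transcribed back to back with a neighbour, and these neighbours were looked up after the members' values had been seen. A listed gene on the opposite strand had its canonical start within 1000 bases of that of 15 members, 12 of them with a protein-coding neighbour. Of the 12 neighbours 5 fell by limma and the other 7 did not pass, with a median log2 fold change of -0.16. Over all genes, 24.5% were called lower and 23.3% higher. Among the non-coding neighbours, CRTC3-AS1 beside BLM rose (1.95, adjusted p = 0.0303), on a mean of 3.67 reads. AIMP2, a scaffold of the tRNA synthetase complex whose start lies 223 bases from that of PMS2, fell (-0.51, adjusted p = 1.28e-08) beside the uncalled PMS2. The others that fell were NPAT next to ATM, HNRNPK next to RMI1 (-0.18, adjusted p = 2.02e-05), MRPL27 next to EME1 (-0.25, adjusted p = 0.0187) and ORMDL1 next to PMS1 (-0.22, adjusted p = 0.00725). Among the 15 members with a neighbour, those with the 5 largest falls had no neighbour that passed, and their values had both signs: NBR2 beside BRCA1 (0.21, adjusted p = 0.255), ZFYVE21 beside XRCC3 (-0.21, adjusted p = 0.0664), C12orf4 beside RAD51AP1 (-0.15, adjusted p = 0.105), MOSPD2 beside FANCB (0.025, adjusted p = 0.733) and SNHG31 beside BARD1 (-0.47, adjusted p = 0.452). SNHG31 rested on a mean of 6.33 reads. No test of the difference between a member and its neighbour was made.

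**Figure D5:**
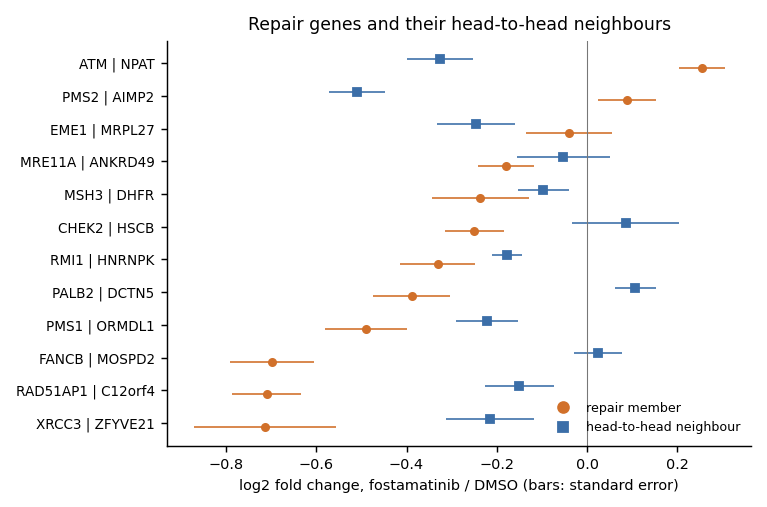
For each of the 12 members with a protein-coding neighbour, the log2 fold change of the member (circle) and of the neighbour (square) share a row, with standard errors as bars. ATM (0.25) and NPAT (-0.33) lie on opposite sides of 0, as do PMS2 (0.089) and AIMP2 (-0.51).

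Other genes of the same pathways, outside the 43, moved in both directions. Of 55 such genes 53 were tested (ATRIP and SLX1A were not analysed here), and 20 fell, 9 rose and 24 did not pass, with a median log2 fold change of -0.086. The largest falls were in checkpoint and meiotic-type recombination genes, with TIPIN at -1.03 (adjusted p = 5.74e-12), CLSPN at -0.91 (adjusted p = 6.17e-13) and MND1 at -0.84 (adjusted p = 2.29e-05). TIPIN protects stalled forks, and CLSPN is the mediator through which ATR activates CHEK1. The largest rises were those of POLN, a polymerase of crosslink repair (0.96, adjusted p = 0.0348, on 7, 10 and 8 reads against 24, 11 and 14), HELQ, a helicase (0.47, adjusted p = 4.88e-04), and ERCC1, a nuclease subunit (0.37, adjusted p = 4.30e-06). In the share called lower, these genes (37.7%) stood between the 43 members (76.7%) and all genes (24.5%).

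Of 11 genes of end joining, the alternative route for double-strand breaks, 10 were tested (NHEJ1 was not analysed here), and 3 fell, 1 rose and 6 did not pass, with a median of -0.099. PRKDC, the DNA-dependent protein kinase, fell most (-0.61, adjusted p = 2.62e-16), followed by XRCC5, a Ku subunit (-0.30, adjusted p = 2.94e-08), and PARP1 (-0.24, adjusted p = 2.61e-06). POLM, a gap-filling polymerase, rose (0.41, adjusted p = 0.00142). The share called lower, 30%, was nearer to that of all genes than to that of the 43 members.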

How the data were processed

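The 6 libraries were made from poly(A)-selected RNA of Huh7-R cells with a directional kit. Per the study's methods, the authors aligned the reads by HISAT (genome hg19), took featureCounts totals on GENCODE 22 genes, removed genes under 5 reads in 2 or more of the 3 samples of each group, and scaled libraries by TMM. Whether counting used the strand was not given in the sources used here. The values the authors deposited are log2 CPM per gene, with 0.5 added to each count. In each library 100% of values gave a whole number of reads (within 0.05), so depth could be read back.

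A linear model with treatment as its only term was fitted to the deposited values (limma 3.58.1 under R 4.3.3, eBayes with a trend on the mean) and p-values were adjusted by Benjamini-Hochberg over all 16305 genes, with a threshold of 0.05. Standard errors of single genes come from this fit, in which the variance is shared across genes (median 33.9 total degrees of freedom from 4 residual). Partner pairs were compared with exact permutation tests, with Welch standard errors, in scipy 1.17.1. Positions, transcript lengths, overlaps and neighbours come from GENCODE 44 on GRCh37, the assembly of hg19, where 98.7% of gene identifiers matched. Promoters come from RefSeq tables on GRCh38.p14, and no coordinate was converted between assemblies.

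The 43 members, their roles, the partner pairs and the comparison lists were chosen with earlier results of these data known. Members that were called or belong to a pair were named with values, and from each other list at most the 3 largest rises and falls among called genes. The remaining uncalled members, back-to-back neighbours and genes that share bases with a member were named after their values were seen. Alternatives were precision weights on recovered reads (voom), no variance trend, median-ratio factors, library size alone, 2 added reads, stricter filters of at least 5 reads in 2 of 3 samples of both groups or 10 reads in every sample, a replicate block, and leaving out each sample.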

Additional observations from a re-analysis of the deposited data

How the results depend on the processing

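The number of members called was 32 without a variance trend and 34 under each other alternative that kept all 6 samples, and 31 to 34 when a sample was left out. Of these, 30 to 33 were lower and 1 higher. Over all genes the count of calls was 7794, 7791 with precision weights on the recovered reads, 6382 without a variance trend, and 6958 to 7480 with a sample left out. The median log2 fold change of the members was -0.42 to -0.34 with a sample left out. Of the 34 called members, 29 kept their call and direction in all 14 alternatives, and the other 5 are MRE11A, BRCA2, RAD54L, RAD54B and FANCM. The direction turned only in members that were not called: FANCE ranged from -0.17 to 0.029 with a sample left out, above 0 without DMSO replicate 2 (0.0084) or fostamatinib replicate 3, and EME1 from -0.11 to 0.0028, above 0 without DMSO replicate 3. The cause was not tested. Non-overlapping partner pairs numbered 10 to 11. Other scalings moved the median of all genes by 0.0037 (median-ratio factors) and -0.011 (library size).

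Samples of equal replicate number deviated from their group means with correlations of 0.028, -0.019 and 0.013. Samples of unequal number gave -0.057 to 0.046, so no pairing by number was seen. With 3 samples a group these values cannot settle whether samples of equal number were handled together, which was not stated. With the replicate block 34 members and 7977 genes were called, and 11 partner pairs kept 1 sign in every same-numbered pair of samples. Depth limits RAD54B, RAD51B and RMI2 most, which had about 19 to 56 reads per sample on average.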
